A study of Mus musculus with 2 samples.

Results

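The genes of the proteasome, the protease complex that degrades ubiquitin-tagged proteins, were compared between brain mononuclear cells of wild-type (WT) and CD47 knockout (KO) mice. The members are the genes whose symbol is *Psma*, *Psmb*, *Psmc*, *Psmd* or *Psme* followed by a number, read from probe sets that the array annotation gives exactly 1 gene symbol. This rule found 42 genes through 88 probe sets, out of 18193 genes on the array. A probe set is a group of short probes that match the transcript of a gene. Where a gene had several, the one that was brightest on average stands for it.

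The WT sample was RNA from 7 male mice of 10 to 15 wks of age, and the CD47 KO sample was RNA from 6 male mice of 12 to 16 wks that lack CD47, the ligand of the receptor SIRPα. The cells came from the interface of a Percoll gradient loaded with digested whole brain, so each sample is a mixture of cell types. The *Cd47* null allele is not restricted to a cell type, and the KO mice were slightly older, so age and genotype cannot be told apart. RNA of each pool went onto a single GeneChip Mouse Genome array. Nothing was replicated, so no difference has a p-value and the spread between animals is unknown. *Cd47* itself read 5816 in the WT pool and 1688 in the KO pool, which gives a Log2 ratio (KO/WT) of -1.79, and its 5 expressed probe sets lay between -1.86 and -1.45.

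The proteasome has a barrel-shaped core, the 20S particle, built of alpha rings that form the gate and beta rings that carry the peptidases. A 19S regulatory particle, with a base of ATPases that unfold the substrate and a lid that removes its ubiquitin, caps the core. Interferon-γ induces a different set of catalytic beta subunits, encoded by *Psmb8* (LMP7), *Psmb9* (LMP2) and *Psmb10* (MECL-1), which replace the subunits encoded by *Psmb5*, *Psmb6* and *Psmb7* in the immunoproteasome. Interferon-γ also induces *Psme1* and *Psme2*, whose products form the PA28 activator, and the peptides made by this form of the complex feed MHC class I molecules. Leukocytes and activated microglia are known for high immunoproteasome levels, and most brain cells for low ones.

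The upstream sequences of 4 of the catalytic genes are given for reference, since inducible and constitutive subunits are known to be under different regulators. Each sequence is the stretch of 250 bases before the start, from RefSeq on build GRCm38.p6, written 5′ to 3′ on the strand of the gene. The first is that of *Psmb8*, at chr17:34197945-34198194 on the plus strand, with a match to the gamma-activated site (TTCNNNGAA), a motif of interferon-γ-responsive genes, in capitals.
Psmb8: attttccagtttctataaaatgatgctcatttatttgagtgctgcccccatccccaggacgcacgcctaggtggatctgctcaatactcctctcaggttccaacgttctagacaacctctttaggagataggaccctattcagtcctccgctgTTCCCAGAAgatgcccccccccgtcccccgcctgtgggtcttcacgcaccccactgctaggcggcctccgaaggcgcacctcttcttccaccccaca
The second is that of *Psmb9*, at chr17:34187331-34187580 on the minus strand, with its GC box (GGGCGG) in capitals. It is shown because it is shared with *Tap1*, whose start lies 226 bases away on the other strand.
Psmb9: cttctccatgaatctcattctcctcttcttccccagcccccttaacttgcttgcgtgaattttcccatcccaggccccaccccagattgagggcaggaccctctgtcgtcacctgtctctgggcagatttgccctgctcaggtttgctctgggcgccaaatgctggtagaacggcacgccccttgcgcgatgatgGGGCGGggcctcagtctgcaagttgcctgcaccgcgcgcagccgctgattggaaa
The last pair are those of the constitutive counterparts, *Psmb5* at chr14:54617996-54618245 on the minus strand and *Psmb6* at chr11:70525107-70525356 on the plus strand. Capitals mark a match to the antioxidant response element (TGACNNNGC), to which NFE2L1, the known activator of constitutive proteasome genes, binds.
Psmb5: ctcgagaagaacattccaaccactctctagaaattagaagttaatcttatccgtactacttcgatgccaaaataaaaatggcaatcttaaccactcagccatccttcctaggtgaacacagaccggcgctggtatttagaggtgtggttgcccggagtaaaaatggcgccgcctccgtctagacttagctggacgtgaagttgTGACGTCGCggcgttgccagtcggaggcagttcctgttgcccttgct
Psmb6: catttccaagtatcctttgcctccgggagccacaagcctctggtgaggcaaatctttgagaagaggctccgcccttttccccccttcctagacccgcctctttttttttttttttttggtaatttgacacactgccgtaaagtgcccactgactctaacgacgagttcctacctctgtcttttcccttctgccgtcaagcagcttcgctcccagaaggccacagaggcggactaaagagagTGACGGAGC

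Windows of this length were held for 35 of the 42 genes, and each motif was searched on both strands. The antioxidant response element was found in 5 of the 35 genes, *Psmb5*, *Psmb6*, *Psmc6*, *Psmd12* and *Psmd9*, and in 10.2% of all 32851 windows in the table. The gamma-activated site was found in *Psmb8* alone among the members and in 7.02% of all windows. The interferon-stimulated response element was found in *Psmb3*, *Psmd4* and *Psmd9*, against 2.98% of all windows. The GC box was found in 20 of the 35 genes, against 32.7% of all windows, and the CCAAT box (CCAAT) in 14, against 33.8%. A gene with more than 1 start was counted when any of its windows held the letters. The shares of all windows are per single window, so they are not like for like with the gene counts. A match is a run of letters and not a shown binding site.

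Levels are MAS5 signals, which measure brightness on a linear scale and share a trimmed mean between the arrays. The medians were 161 (WT) and 146 (KO), and a probe set was called expressed if it reached the array median in at least 1 pool. By this rule 41 of the 42 genes were expressed, and 40 reached the median on both arrays. Most were bright, since 28 of the 42 lay in the brightest 25% of the 11682 expressed genes. Probe sets differ in how brightly they bind, so comparisons are made between genotypes within a gene.

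The immunoproteasome genes were bright in both genotypes and hardly differed between them. *Psmb8*, the inducible chymotrypsin-like subunit, read 2888 in the WT pool and 3074 in the KO pool, a Log2 ratio of 0.09. *Psmb9*, the inducible counterpart of the caspase-like subunit, had 4597 and 4431, a Log2 ratio of -0.05. *Psmb10*, the inducible trypsin-like subunit, had 2808 and 3139, a Log2 ratio of 0.16. *Psme1*, which encodes the alpha chain of PA28, had 4789 and 4714, a Log2 ratio of -0.02. The CD47 KO array was the brighter for *Psmb8* and *Psmb10* and the dimmer for *Psmb9* and *Psme1*, and none of the 4 differed by more than 1.12-fold. *Psme2*, which encodes the beta chain of PA28, is not a member here, because the only probe set annotated to it also carries a second symbol. A second *Psmb8* probe set was below the median on both arrays, with signals of 65.5 and 36.

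The constitutive catalytic subunits were as close. *Psmb5*, the chymotrypsin-like subunit that *Psmb8* replaces, read 2270 in the WT pool and 2166 in the KO pool, a Log2 ratio of -0.07. *Psmb6*, the caspase-like subunit that *Psmb9* replaces, had 3204 and 3500, a Log2 ratio of 0.13. *Psmb7*, the trypsin-like subunit that *Psmb10* replaces, had 6004 and 6283, a Log2 ratio of 0.07. Within each pair the Log2 ratio of the inducible minus that of the constitutive subunit was 0.16 for *Psmb8* and *Psmb5*, -0.18 for *Psmb9* and *Psmb6*, and 0.10 for *Psmb10* and *Psmb7*. The 3 pairs did not share a direction. The spread between probe sets of the same gene is the only internal measure of error on these arrays. It had an SD of 0.364 on the Log2 scale for genes with a mean signal above 1156, and all 3 differences were smaller. That SD is for single ratios and is wider than the SD of 0.281 over the Log2 ratios of the brightest 25% of genes. Lying under it therefore does not tell whether the pairs differ.

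**Figure D1:**
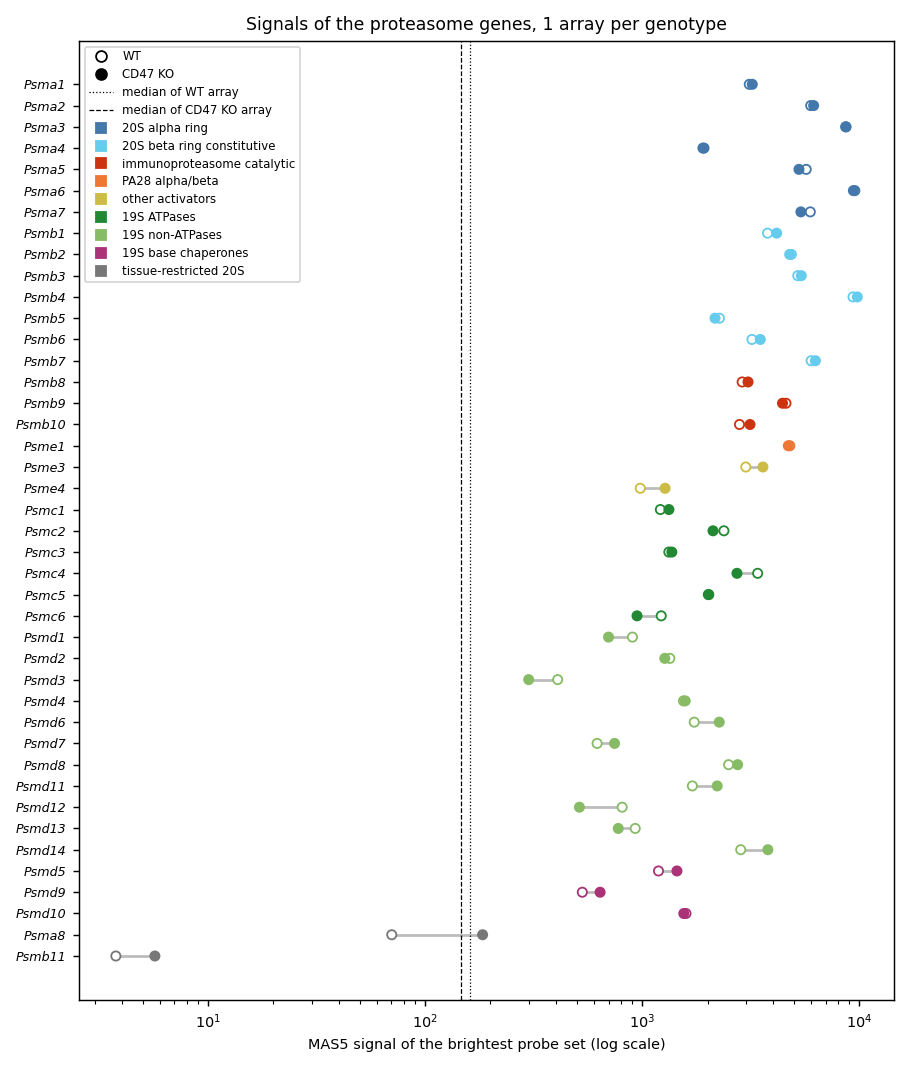
MAS5 signals (log scale) of the brightest probe set of each of the 42 genes on the WT array (open circles) and the CD47 KO array (filled circles), coloured by role, with vertical lines at the array medians of 161 and 146. The core and immunoproteasome genes have nearly overlapping circles, the 19S genes are dimmer and further apart, and *Psma8* crosses the medians from 70.2 to 184.

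As groups, the inducible and constitutive genes had nearly the same Log2 ratio. The median over the 4 inducible genes was 0.03, with 2 higher and 2 lower in CD47 KO cells. The median over the 34 constitutive subunits was 0.02, with 19 higher and 15 lower, and the difference of the medians was 0.01. Over all expressed genes the median was 0.00, and over the brightest 25% it was 0.05. Of all 41 expressed members 24 were higher and 17 lower, and after quantile or loess normalization of the arrays 19 were higher and 22 lower, so the balance of directions depends on the scaling. The medians of the inducible and of the constitutive genes also turned to -0.01 under quantile or loess normalization. Past 2-fold, 1 of the 41 members was higher and none lower, beside 3.53% and 5.41% of all expressed genes (8.94% in either direction). Past 1.5-fold, 1 was higher and 1 lower, beside 10.1% and 13.6% (23.7% in either direction). Past 1.2-fold, a fold chosen after the values were seen, were 13 members, beside 53.4%. Since most members were bright, the shares among the brightest 25% of genes are nearer in kind. There 0.616% passed 2-fold and 4.62% passed 1.5-fold in either direction, and none of the 28 members in that class did. Past 1.2-fold were 4 of the 28, beside 26.6% of that class.

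On their brightest probe sets the genes of the 20S core lay within 0.14 of 0 on the Log2 scale. The 7 alpha ring genes, *Psma1* to *Psma7*, had signals of 1905 to 9547 in the WT pool and 1927 to 9400 in the KO pool. Their Log2 ratios ran from -0.14 for *Psma7* to 0.05 for *Psma1* and *Psma2*, with a median of -0.01. The 7 constitutive beta ring genes, *Psmb1* to *Psmb7*, had signals of 2270 to 9362 and 2166 to 9801. Their Log2 ratios ran from -0.07 for *Psmb5* to 0.14 for *Psmb1*, a structural subunit without peptidase activity, and the median was 0.07. Under quantile or loess normalization the median of the beta ring genes was 0.00. None of these 14 genes passed 1.2-fold on its brightest probe set, which 25% of the 2009 expressed genes in the same range of signal did. Dimmer expressed probe sets did pass it, with -0.89 for *Psma3*, 1.76 for *Psma6*, and 0.27 and -0.30 for *Psmb1*. The SD over the 14 Log2 ratios was 0.0823, and over those 2009 genes it was 0.268.

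The genes of the 19S regulatory particle had a wider spread of ratios, in both directions. Over its 17 genes the median Log2 ratio was 0.01, with 9 higher and 8 lower, and the SD was 0.319. The SD over the 6802 expressed genes in their range of signal was 0.461. Past 1.2-fold were 9 of the 17, beside 53.4% of all expressed genes and 49.9% of those 6802. The 19S genes were also dimmer than the core, with 8 of 17 in the brightest 25% where all 14 core genes lay, and the part of brightness in the wider spread was not tested.

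Within the base of the 19S particle, lower ratios were found for some of the ATPase genes. *Psmc4*, an ATPase gene, read 3405 in the WT pool and 2734 in the KO pool, a Log2 ratio of -0.32, and its second probe set gave -0.24. *Psmc6*, another ATPase gene, had 1224 and 947, a Log2 ratio of -0.37, but 1.07 on its second expressed probe set, so its direction depends on the probe set. The other ATPase genes, *Psmc1*, *Psmc2*, *Psmc3* and *Psmc5*, lay between -0.17 and 0.13. *Psmd1*, which encodes a scaffold of the base, had 902 and 700, a Log2 ratio of -0.37, while the other scaffold gene, *Psmd2*, had -0.08 and the ubiquitin receptor gene *Psmd4* had 0.03. Over the 9 genes of the base the median on the brightest probe sets was -0.08, and all were within 0.37 of 0.

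The lid held both the highest and the lowest ratio of the 17 regulatory particle members. *Psmd12*, a scaffold subunit of the lid, read 809 in the WT pool and 514 in the KO pool, a Log2 ratio of -0.65, the only value past 1.5-fold among the constitutive subunits. *Psmd3*, another scaffold subunit, had 408 and 300, a Log2 ratio of -0.44. In the opposite direction *Psmd14*, the deubiquitinase of the lid, had 2845 and 3794, a Log2 ratio of 0.42. *Psmd6*, a lid scaffold gene, had 1737 and 2265, a Log2 ratio of 0.38, and a second bright probe set gave 0.57. *Psmd11* had 1703 and 2217 on its brightest probe set, a Log2 ratio of 0.38. *Psmd7*, the partner of *Psmd14* in the lid, had 0.27, *Psmd8* had 0.14 and *Psmd13* had -0.26. Over the 8 lid genes the median on the brightest probe sets was 0.20, with 5 higher and 3 lower. The mean over expressed probe sets was -0.14 for *Psmd11*, -0.01 for *Psmd7* and -0.43 for *Psmd13*, and 0.47 for *Psmd6*. The balance of directions in the lid thus depends on the probe set used. The spread between probe sets had an SD of 0.518 at the signals of *Psmd12* and 0.65 at those of *Psmd3*.

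**Figure D2:**
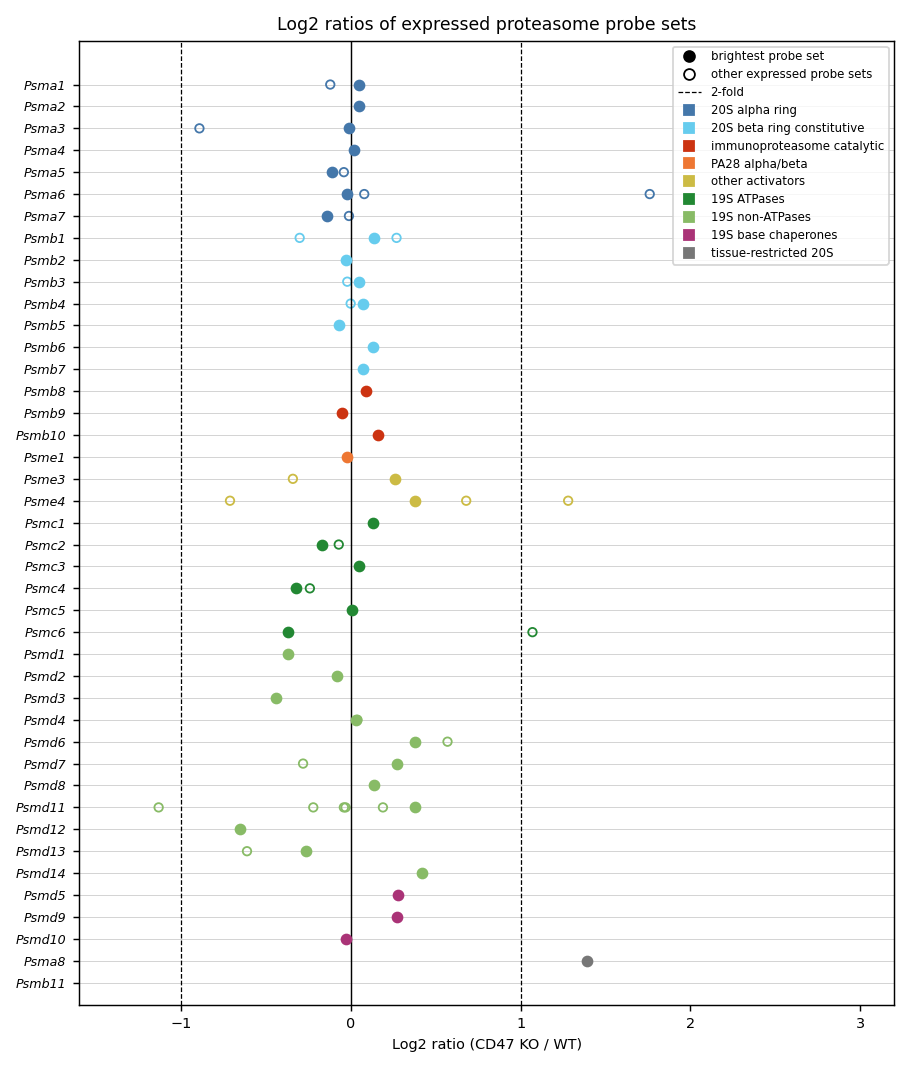
Each expressed probe set of the members, placed by its Log2 ratio (KO/WT), with filled points for the brightest probe set of a gene and open points for its others, and dashed lines at 2-fold. Apart from *Psma8*, the filled points of the 20S and immunoproteasome genes lie within 0.16 of 0, and the open points of *Psma6*, *Psmc6*, *Psmd11* and *Psme4* lie past 2-fold where their filled points do not. *Psmb11* was not expressed and has no point.

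Chaperones that assemble the base and the other activators were mostly on the positive side. *Psmd5* and *Psmd9*, which encode base chaperones, had Log2 ratios of 0.28 and 0.27, and the third, *Psmd10* (gankyrin), had -0.03. *Psme3*, which encodes the nuclear activator PA28γ, had signals of 3002 and 3600, a Log2 ratio of 0.26, but -0.34 on its second expressed probe set. *Psme4*, which encodes the activator PA200, had 980 and 1275, a Log2 ratio of 0.38, and its 4 expressed probe sets ranged from -0.71 to 1.28.

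The 2 tissue-restricted core genes were dim. *Psma8*, the alpha subunit gene of the testis, read 70.2 in the WT pool and 184 in the KO pool, a Log2 ratio of 1.39 from a single probe set. It was the only member past 2-fold on its brightest probe set. Its WT signal was below the array median, and it counted as expressed only through the CD47 KO array, so a large ratio was needed for it to be counted at all. Its mean signal lay at percentile 1.87 of the expressed genes, where the SD between probe sets of a gene was 0.854. *Psmb11*, the beta subunit gene of the thymic cortex, was not expressed, with signals of 3.76 and 5.69.

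**Figure D3:**
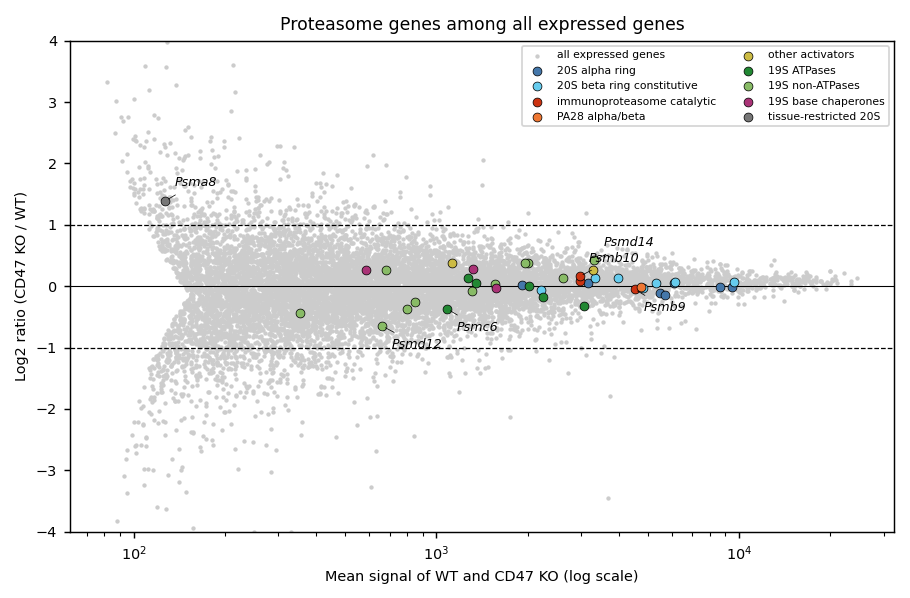
Log2 ratio (KO/WT) against mean signal (log scale) for all 11682 expressed genes (grey, 13 of which lie outside the plotted range) and the 41 expressed members (coloured by role). The members follow the grey cloud as it narrows with brightness, *Psma8* at its dim edge with 1.39 and the core genes in the bright, narrow part.

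Probe sets of the same gene gave different answers for several members. Of the 88 probe sets, 67 were expressed, and 18 genes had at least 2 of them. In 8 of these 18 genes all expressed probe sets had the same sign, and over the 5499 genes of the array with at least 2 expressed probe sets the share was 44.4%. The median range between probe sets of a gene was 0.266 over the 18 genes and 0.543 over the 5499. The range passed 1 in 4 of the 18 genes, *Psma6*, *Psmc6*, *Psmd11* and *Psme4*, beside 24.4% of the 5499.

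*Psma6*, an alpha ring gene, had 3 expressed probe sets. The bright ones had Log2 ratios of -0.02 and 0.08, with signals of 7120 to 9547, and the dim one had 171 in the WT pool and 582 in the KO pool, a Log2 ratio of 1.76. *Psmc6* had -0.37 on its brightest probe set and 1.07 on a dimmer one, with signals of 369 and 775. *Psmd11* had 6 expressed probe sets, from -1.13 (1272 and 582) to 0.38. *Psme4* had its largest ratio, 1.28, on a probe set with signals of 73.7 and 179. In all, 5 of the 67 expressed probe sets of the members passed 2-fold, 4 higher and 1 lower. The share over all expressed probe sets is not given here. Of the 5, 1 was the brightest probe set of its gene, that of *Psma8*. The *Psma8* probe set and the *Psme4* probe set with 1.28 were below the median in the WT pool. Both counted as expressed only through the CD47 KO array. Which transcripts the discordant probe sets read was not analysed here.

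The genes around the inducible subunits, and the rest of the pathway, were read from lists written by hand. *Psmb9*, *Tap1*, *Psmb8* and *Tap2* follow each other in this order within the MHC region in RefSeq. *Tap1* and *Tap2* encode the transporter that carries peptides into the endoplasmic reticulum. *Tap1*, which shares its upstream stretch with *Psmb9*, had signals of 386 and 388, a Log2 ratio of 0.01, beside -0.05 for *Psmb9*. *Tap2* was below the median on both arrays, at 95.2 and 120.

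Of the genes of MHC class I presentation, 11 were expressed, 10 were higher and 1 was lower in CD47 KO cells, with a median Log2 ratio of 0.10. Over all 11682 expressed genes 5879 were higher, and over the 2921 in the brightest 25% 1765 were. Past 1.5-fold, 1 of the 11 was higher and none lower, beside the 10.1% and 13.6% of all expressed genes. *B2m*, the light chain of class I molecules, read 18216 in the WT pool and 21602 in the KO pool, a Log2 ratio of 0.25. The class I heavy chain genes *H2-K1* and *H2-D1* had 0.05 (-0.02 under loess) and 0.11 (-0.06 as the mean over its expressed probe sets, which ran from -0.56 to 0.22). *Tapbp*, which encodes tapasin, had 0.10, and 0.69 on its other probe set. Probe sets of class I genes can bind transcripts of near-identical relatives, so these values are uncertain. *Erap1*, a peptide-trimming enzyme gene, had the highest ratio of the list with 0.84, at dim signals of 97.3 and 174. It counted as expressed only through the CD47 KO array, and it is the 1 gene of the list past 1.5-fold. Its other probe set, below the median on both arrays, gave -0.50. *Pdia3*, a chaperone gene of the loading complex, followed with 0.32, and its other probe set gave 0.91. *Nlrc5*, the transactivator of class I genes, had the lowest with -0.44, at signals of 180 and 132, and counted as expressed only through the WT array. With the median required on both arrays 8 genes of the list remained, with a median Log2 ratio of 0.11.

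Of the listed genes that carry interferon signals to the immunoproteasome, 13 were expressed, 10 were higher and 3 were lower, with a median of 0.17. Past 1.5-fold, 1 was lower and none higher, beside 13.6% and 10.1% of all expressed genes, of which 5879 of 11682 were higher at any fold. *Irf1*, the transcription factor through which interferon-γ acts on *Psmb8* and *Psmb9*, had signals of 461 and 326, a Log2 ratio of -0.50. *Stat2* had 256 and 148, a Log2 ratio of -0.79. *Ifngr1* and *Ifngr2*, the chains of the interferon-γ receptor, had 0.11 and 0.54, and *Irf8*, a factor of myeloid cells and microglia, had 0.50.

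Assembly factors, the inhibitor and other components of the 26S complex were divided. Of 11 expressed, 5 were higher and 6 lower, with a median Log2 ratio of -0.03. *Pomp*, which encodes the maturation factor of the core, was bright, with signals of 8111 and 8713 and a Log2 ratio of 0.10. *Psmf1*, the inhibitor PI31, had 0.03, with -0.82 on its other expressed probe set. The assembly chaperone genes *Psmg2*, *Psmg3* and *Psmg4* had -0.24, -0.32 and 0.15. *Uchl5*, a deubiquitinase gene of the regulatory particle, had 1218 and 1859, a Log2 ratio of 0.61, the only one past 1.5-fold, beside 10.1% of all expressed genes. *Adrm1* has no probe set with a single symbol and is not analysed here.

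Of the genes of ubiquitin supply and shuttling, 8 were expressed, 5 higher and 3 lower, with a median of 0.09, and 2 were past 1.5-fold higher, beside 10.1% of all expressed genes. *Uba6*, a ubiquitin-activating enzyme gene, had 755 and 1263, a Log2 ratio of 0.74, and its second expressed probe set gave 0.90. *Ngly1*, the glycanase that processes NFE2L1 into its active form, had 0.63. *Rad23b*, counted as higher with 0.46, had expressed probe sets from -2.53 to 0.46, with a mean of -0.55. *Nfe2l1* itself had 705 and 577, a Log2 ratio of -0.29, and the shuttle gene *Ubqln4* had -0.20. The 5 members with an antioxidant response element in their upstream window ranged from -0.65 for *Psmd12* to 0.27 for *Psmd9*.

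Markers of the cell types in the preparation were read in the same way, since fewer cells of a type and less RNA per cell cannot be told apart in mixed samples. All 11 expressed microglial markers were higher in CD47 KO cells, with a median Log2 ratio of 0.19 and summed signals of 71037 (WT) and 81552 (KO). The lowest was *Sall1* with 0.02, and -0.58 on its other expressed probe set. Over all expressed genes 5879 of 11682 were higher, and over the brightest 25% 1765 of 2921. The markers were not recomputed under other scaling. Markers of neutrophils (2 of 7 higher, median -0.20, summed signals 69723 and 69077), monocytes (1 of 6, -0.29, 23324 and 19149) and B cells (0 of 4, -0.35, 3475 and 2641) had negative medians. Those of T and NK cells had 5 of 7 higher, a median of 0.15 and summed signals of 7041 and 7903. They were divided, with *Cd3e* at -2.34 (signals of 326 and 64.3) and *Cd8a* at -0.91 but *Cd3d* at 0.54 and *Cd3g* at 0.77. Of the markers of these leukocytes, *Cxcr2*, *Cd4* and *Cd22* were below the median on both arrays. Fibroblast and meningeal markers (1 of 7 higher, -0.71, 6203 and 4144) and endothelial markers (2 of 9, -0.37, 9226 and 7668) were lower as well, and astrocyte markers were higher (6 of 7, 0.28, 24328 and 29316). Markers of oligodendrocytes (7 expressed, 0.02, 15378 and 16068) and neurons (8 expressed, -0.07, 38578 and 39012) were read in both pools. All these directions are for the brightest probe sets. Expressed probe sets of a marker could differ in sign, as for *Gfap* (-1.79 to 0.98), *Pdgfra* (-2.33 to 0.84), *Mobp* (-1.73 to 0.18) and *Ighm* (-3.34 to 0.35). *Dpt* and *Aldh1l1*, of the fibroblast and astrocyte lists, were below the median on both arrays. *Cd3e*, *Ms4a1* (B cells), *F13a1* (monocytes), *Col3a1* and *Lum* (fibroblasts) counted as expressed only through the WT array. Their negative ratios enter the counts and medians of their lists. The part of these shifts in the proteasome values was not tested.

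**Figure D4:**
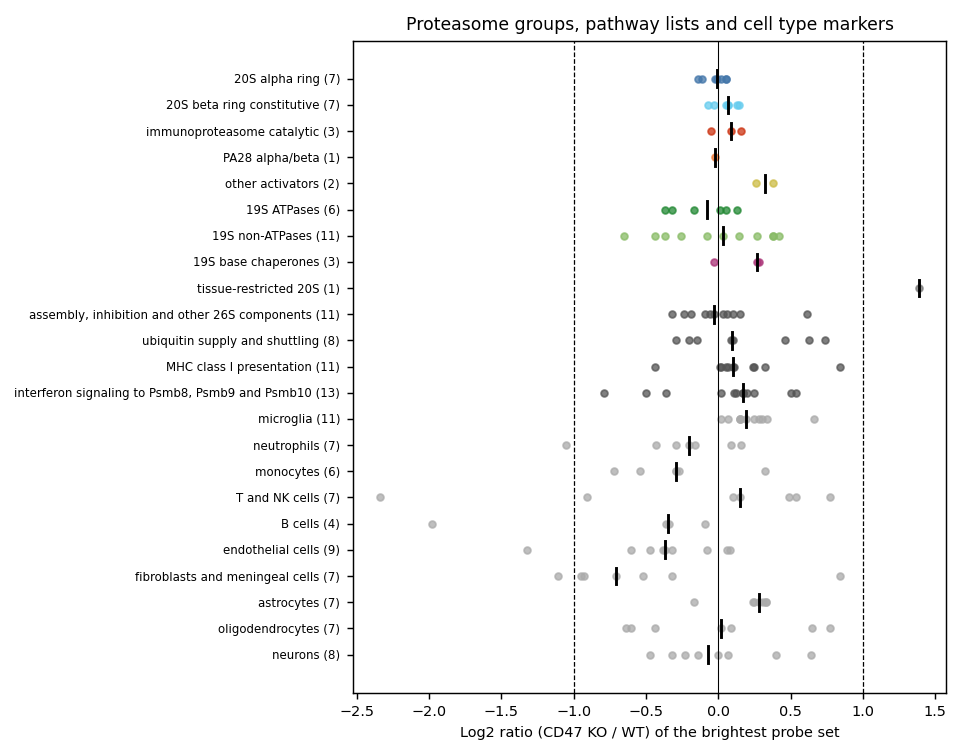
Log2 ratio (KO/WT) of each expressed gene (points) and the median (black bars) for the proteasome role groups, the other pathway lists and the cell type markers, with the number of genes in parentheses and dashed lines at 2-fold. The points of the core and immunoproteasome groups lie within 0.16 of 0, while marker medians run from -0.71 for fibroblasts and meningeal cells to 0.28 for astrocytes.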

How the data were processed

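Brain mononuclear cell RNA was pooled by genotype and amplified, with an input of 20 ng, for 1 Mouse Genome array per pool. The deposited values are linear MAS5 signal intensities, computed by the authors in Expression Console. The sources used here do not name the software version or genome build. The mean after trimming 2% at each end was 500.0 on both arrays, so each array appears scaled by a common factor.

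Of 45101 probe sets, 64 are controls, 34945 carry 1 gene symbol in the platform annotation, 932 several and 9160 no name here. Only those with 1 symbol were used, and 34741 of them have a gene identifier in the RefSeq table. Log2 ratios (KO/WT) were taken with no offset. The spread between expressed probe sets of a gene was pooled within 4 classes of signal, with bounds of 256, 503 and 1156. Precision is limited by there being 1 array per genotype, and no test between genotypes was possible.

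The members and gene lists were chosen with earlier results of these data known. Signals were given for the inducible genes and their counterparts, members past 1.5-fold, the 5 highest and 5 lowest ratios, members with a probe set past 2-fold, the 2 highest and 2 lowest genes of each pathway list and a fixed set of antigen presentation and regulatory genes. Of the 56 genes of these lists, 45 have a probe set with 1 symbol, as do 78 of the 88 cell type markers. Other member values named, and those of *Rad23b*, fall outside this rule.

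Ratios of named genes, pair differences, member counts and medians of groups and lists were recomputed under 11 alternatives. The cell type markers and the summaries over the whole core, the regulatory particle, its base and its lid were left out. Some alternatives changed the signal threshold (none, 75th percentile, or median on both arrays) or the scaling (centring, quantile, or loess with a span of 0.4). Others changed low signals (25th percentile added, or signals raised to it) or the probe set (mean, median, or without those named for possible cross-hybridisation). Calculations were tested on simulated arrays. Python 3.11.15, pandas 2.3.3, R 4.3.3 and limma 3.58.1 were used.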

Additional observations from a re-analysis of the deposited data

How the results depend on the processing

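The median Log2 ratio of the 4 inducible genes lay between -0.01 and 0.03 under the 11 alternatives, that of the constitutive subunits between -0.01 and 0.03, and their difference between 0.00 and 0.02. The pair differences lay between 0.15 and 0.16 for *Psmb8* and *Psmb5*, -0.20 and -0.18 for *Psmb9* and *Psmb6*, and 0.09 and 0.12 for *Psmb10* and *Psmb7*. The number of members past 2-fold higher was 0 in place of 1 when genes had to reach the 75th percentile, or the median of both arrays, since *Psma8* then does not count as expressed. The number past 1.5-fold higher was 0 under the same thresholds, 2 with no filter on signal, where *Psmb11* enters, and 2 with the mean over expressed probe sets, where *Psma6* enters. Of the named genes, *Psma6* had 0.61 with the mean over probe sets, *Psmc6* had 0.35 with the mean or the median, and *Psmd11* had -0.14 with the mean and -0.03 with the median or without probe sets named for cross-hybridisation. *Psma8* ranged from 1.03 to 1.55. With the mean over probe sets *H2-D1* had -0.06, *Psmf1* -0.39, *Tapbp* 0.40 and *Pdia3* 0.61. The signs of *Psma6*, *Psmc6*, *Psmd11*, *H2-D1* and *Psmf1* thus depend on the probe set used. The median of the ubiquitin list lay between 0.00 and 0.28, with 0.28 reached without the probe sets named for cross-hybridisation. Of 448 values of named genes 442, and of 141 list medians 140, moved by less than the spread between probe sets. Part of the first count was fixed in advance, since a signal threshold cannot change the ratio of a gene's brightest probe set. For a gene with 1 probe set, the choice of probe set cannot change it either. With 1 array per genotype no sample could be left out. No paired analysis was possible because each genotype has 1 array, with no replicate number in the labels.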
